A study of Mus musculus with 6 samples.

Results

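The genes described here are 48 genes of the actin cytoskeleton and the immune synapse, chosen by symbol with earlier results of these data known. They were compared between natural killer (NK) cells with and without the receptor tyrosine kinase CD117, which Kit encodes. Each gene was read from its brightest probe on an Illumina bead array. Of the 48, 46 had a probe and 45 were bright enough to be tested, among 11742 genes tested in all and 17626 with a probe. Arpc3 and Actr2 had no probe listed, and the probe of Capza1 was too dim to be tested. The cells came from spleens of female C57Bl/6 mice aged 7 weeks. After magnetic enrichment, cells without CD3 and with NK1.1 were sorted into those that carried CD117 (Kit+, 3 samples) and those that did not (Kit-, 3 samples), and the labels name no other treatment in either group. Sorts and comparisons were repeated 3 times per the series' design text, and the titles number the samples 1 to 3 in each group. The mice came from 2 suppliers, and the labels do not say which or how many mice gave each sample, so p-values cover sample-to-sample spread only.

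Actin filaments give NK cells their shape, their movement and the immune synapse, the tight contact with a target cell across which perforin and granzymes are released. Monomers join filaments with the help of profilin, the Arp2/3 complex starts branches when proteins of the WASP family activate it, and cofilin and its partners take old filaments apart. Signals from cell surface receptors switch these steps on, and talin and kindlin couple the filaments to integrins such as LFA-1, which hold the target cell. Loss of WASP, coronin-1A, DOCK2, DOCK8 or kindlin-3 causes inherited immune deficiency in humans, with defects that reach NK cells.

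Values are normalized log2 intensities. A gene was called higher or lower at an adjusted p under 0.05 in a limma fit with the sample number as a block, so that each Kit+ sample was set against the Kit- sample of its number, with Benjamini-Hochberg adjustment over all 11742 genes. In this paired fit 460 genes (3.92%) were higher and 519 (4.42%) lower in Kit+. Without the block, 62 (0.528%) and 89 (0.758%) passed. With median centring of each array in place of quantile normalization, 14 were higher and 9 lower, with 1642 of all genes at an unadjusted p under 0.05. The arrays differed in their bright end, with a raw 99th percentile between 1027 on Kit- 2 and 6370 on Kit- 1. A probe was taken as above background where it exceeded 95% of 1178 probes for odorant and vomeronasal receptors, a level between 6.58 and 7.23. Kit itself, the gene of the sort, had a log2 fold of 2.83 (SE 0.22) and checks the labels.

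Of the 45 tested genes, 15 were lower in Kit+ NK cells and none was higher, against 4.42% of all tested genes lower. They were Capns1, Pfn1, Rhoa, Lcp1, Hcls1, Fermt3, Capzb, Rac2, Cap1, Arpc4, Was, Actn4, Arpc5, Tln1 and Ezr, with falls between 1.59-fold and 6.33-fold. At an unadjusted p under 0.05 in the same limma fit, 19 were lower and 3 higher (Actb, Arpc1b and Evl). Without the block 4 passed, all lower (Capns1, Lcp1, Fermt3 and Hcls1), with 16 lower and none higher at an unadjusted p under 0.05. Every one of the 15 had a negative fold in all 18 other settings tried, including median centring and cyclic loess, though with median centring none passed. Several of these settings could not turn a sign. Leaving out the block or changing the filter on dim probes keeps the same fold. All 15 were lower in each pair, so leaving out a pair could not turn it. For the 14 whose groups did not overlap, leaving out 1 sample could not either. The median log2 fold of the 45 was -0.20, beside 0.03 for all tested genes. The genes as a set were bright, with a median brightness at percentile 89.2, and among all genes above background on all 6 arrays 7.35% were lower and 4.98% higher, while 13 of the 34 members above background on all 6 were lower. Between the same samples 7 of 15 tested macrophage and monocyte markers rose, and their part in these falls was not tested. In bulk samples fewer cells of a type and less RNA per cell cannot be told apart.

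**Figure D1:**
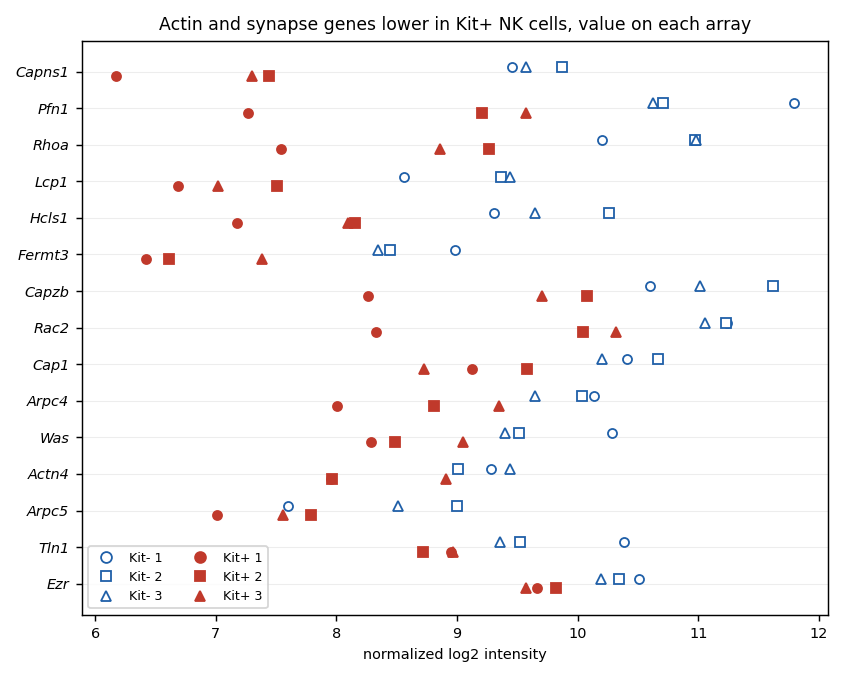
Normalized log2 intensity (x axis) of the 15 genes called lower in Kit+, on each of the 6 arrays. Open blue marks are Kit- and filled red marks Kit+ samples, and the marker shape gives the sample number. The groups overlap for Arpc5 alone among the 15.

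The fall was seen in every numbered pair and was largest in number 1. All 15 were lower in the Kit+ sample of each number, and for 12 of them the gap was widest in number 1, for 2 in number 3 and for 1 in number 2. The 15 were called from these same 3 differences, so their agreement between pairs was largely set by the call and is no separate support. Their median difference was -2.13 in number 1, -1.23 in number 2 and -0.96 in number 3. Over the 45 genes the medians were -0.42, -0.24 and -0.30, while over all tested genes they were 0.07, -0.00 and 0.04. Of the 45, 20 were lower in Kit+ in all 3 numbers, against 17.3% of all genes, and 6 were higher in all 3, against 24.3%. The groups did not overlap for 15 genes lower in Kit+, where 7.92% of all genes did so, and for 1 gene higher, Vav1, where 10% did. With the number 1 samples left out, 11 of the 15 still passed (limma, paired), and Arpc4, Was, Ezr and Tln1 did not. With number 2 left out 5 passed (Cap1, Hcls1, Rhoa, Lcp1 and Capns1), and with number 3 left out 14.

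**Figure D2:**
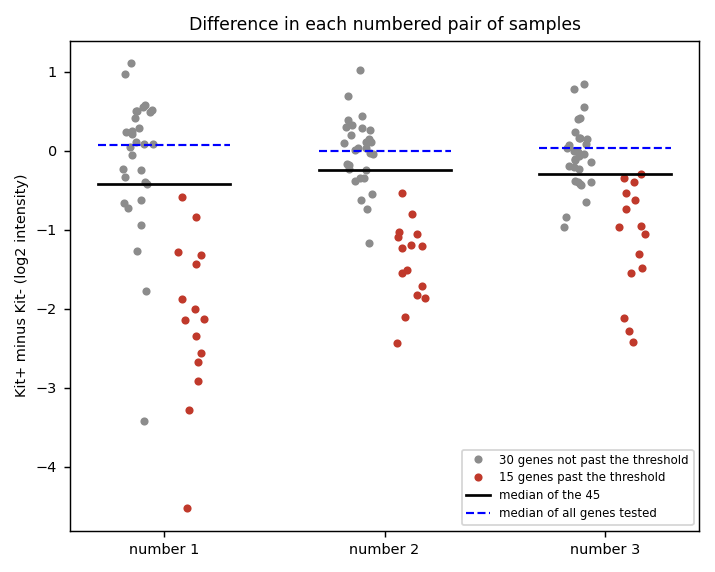
Difference between the Kit+ and the Kit- sample of each number (y axis, log2 intensity) for the 45 tested genes. Red points are the 15 genes called lower and grey points the other 30, the solid line is the median of the 45 and the dashed line the median of all tested genes. All red points lie below 0 in each number, but these genes were called from the same differences.

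Actin itself did not give a single answer. Actb, the cytoplasmic beta-actin of every cell, stood at 12.95, 14.32 and 13.33 in Kit- and at 13.93, 14.36 and 14.18 in Kit+ by its brightest probe. The groups overlapped, and the log2 fold was 0.62 (95% interval 0.13 to 1.11, adjusted p = 0.12 in limma). A further Actb probe, also bright on all 6 arrays, read 13.08, 13.07 and 13.09 in Kit- and 10.45, 10.63 and 11.25 in Kit+. By that probe every Kit+ sample lay far below every Kit- sample, with a log2 fold of -2.30 (SE 0.19, adjusted p = 0.000949 in limma over all kept probes). The remaining Actb probe had a log2 fold of 0.57. So the direction for Actb depended on the probe. Actg1, the gamma-actin that differs from beta-actin in a few residues, lay close to background, with 6.82 ± 0.41 for Kit- against 6.76 ± 0.33 for Kit+ (SD, n = 3 each), with an interval of the log2 fold from -0.44 to 0.32.

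Among 7 genes of monomer binding and filament turnover, 2 fell. Pfn1, profilin, which feeds actin monomers to growing filament ends, stood at 11.79, 10.71 and 10.62 in Kit- and 7.27, 9.20 and 9.57 in Kit+. All Kit+ samples were below all Kit- samples, and Kit+ 1 was lowest by far. The fall was 5.14-fold (log2 fold -2.36, SE 0.54, adjusted p = 0.0312 in limma), and without the number 1 samples the log2 fold was -1.28. Cap1, a cyclase-associated protein that recycles actin monomers from cofilin, was at 10.41, 10.67 and 10.20 in Kit- and 9.12, 9.58 and 8.73 in Kit+. Here the 3 pairs were alike, with differences of -1.29, -1.09 and -1.48, and the fall of 2.43-fold (SE 0.17 on the log2 scale, adjusted p = 0.00353 in limma) held with any number left out. Cfl1, cofilin, the filament-severing protein, stood at 8.06 ± 0.40 and 7.88 ± 0.22 (SD, n = 3 each), and Wdr1, its partner, at 10.28 ± 0.07 and 10.38 ± 0.36. The thymosin genes, whose small products hold monomers in reserve, showed no call. The probe of Tmsb4x was below background on all 6 arrays, so it gave no measure, and Tmsb10 stood at 8.68 ± 1.09 and 8.76 ± 0.79.

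Coro1a, which encodes coronin-1A, a filament-binding protein of leukocytes needed for lytic granule release by NK cells, was among the brightest members. By its brightest probe it stood at 13.19, 13.09 and 12.86 in Kit- and 11.92, 12.92 and 13.02 in Kit+. Kit+ 1 was low and the other samples overlapped, with a log2 fold of -0.43 (SE 0.26, adjusted p = 0.416 in limma). A dimmer Coro1a probe read 10.02, 10.09 and 9.58 in Kit- and 6.29, 6.24 and 6.57 in Kit+. That probe exceeded background on no Kit+ array, so only a bound can be given: with those arrays at their background level it was at least 8.68-fold lower (adjusted p = 0.000321 in limma over all kept probes). The other Coro1a probe had a log2 fold of -0.78. All 3 probes of Coro1a were thus below 0.

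Capzb, the beta subunit of the protein that caps growing filament ends, was at 10.60, 11.62 and 11.01 in Kit- and 8.26, 10.08 and 9.71 in Kit+. The groups did not overlap, and the fall was 3.32-fold (log2 fold -1.73, SE 0.22, adjusted p = 0.00276 in limma). A second Capzb probe, close to background, had a log2 fold of -0.06.

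The subunits of the Arp2/3 complex, the machine that starts branched filaments, did not move together. Of the 8, 6 were tested and 2 were lower. Arpc4 stood at 10.13, 10.04 and 9.65 in Kit- and 8.01, 8.81 and 9.35 in Kit+, a fall of 2.32-fold (SE 0.30 on the log2 scale, adjusted p = 0.0399 in limma) that shrank from number 1 (-2.13) to number 3 (-0.30). Arpc5 stood at 7.59, 8.997 and 8.51 in Kit- and 7.01, 7.79 and 7.56 in Kit+. It was lower in each pair although the groups overlapped, and the fall was 1.88-fold (SE 0.18, adjusted p = 0.0191 in limma). Arpc2, the brightest subunit, was at 12.11, 12.01 and 12.39 in Kit- and 12.35, 12.28 and 12.43 in Kit+, with an interval of the log2 fold from -0.20 to 0.56. Arpc1b, the haematopoietic form of the p41 subunit, was higher in each pair by its brightest probe, with a log2 fold of 0.44 (interval 0.06 to 0.82, adjusted p = 0.156 in limma), yet its other probe had -0.89 (adjusted p = 0.063). The intervals of Arpc4 and Arpc5 did not reach those of Arpc2 and Arpc1b. Arpc1a had a log2 fold of -0.42 by its brightest probe, and 2 dimmer probes were lower (adjusted p = 0.00102 and 0.0184 in limma over all kept probes). These exceeded background on 2 and 1 of the Kit+ arrays, and with the other arrays at their background level they were 3.78-fold and 1.89-fold lower. Actr3, an actin-related subunit, was above background on 2 of 6 arrays only.

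Serum response factor, with its actin-sensing partner MRTF, is known to drive actin cytoskeleton genes through a sequence called the CArG box. Promoter sequences from RefSeq (GRCm38.p6) were at hand for 45 of the 48 genes, and a CArG box (searched on both strands) lay in the 250 bases before the first listed start of 3 of them, or 6.67%, against 1.40% of 27025 promoters of the same length. The 3 genes differed in the comparison: Arpc4 was lower, while Vcl and Actg1 were not called. Each is shown from 5′ to 3′ on its gene's strand, with the CArG box in capitals. They are shown because they were the members among the 45 with that box. Promoters of Actb, Rac1 and Rac2 were not at hand, so whether they hold the box was not tested. The windows are chr6:113377863-113378112 (plus strand) for Arpc4, chr14:20929148-20929397 (plus strand) for Vcl and chr11:120348496-120348745 (minus strand) for Actg1.
Arpc4: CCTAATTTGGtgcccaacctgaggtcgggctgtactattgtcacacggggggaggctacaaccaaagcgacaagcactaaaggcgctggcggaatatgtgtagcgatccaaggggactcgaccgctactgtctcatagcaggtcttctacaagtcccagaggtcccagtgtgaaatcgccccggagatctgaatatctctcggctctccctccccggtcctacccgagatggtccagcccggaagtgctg
Vcl: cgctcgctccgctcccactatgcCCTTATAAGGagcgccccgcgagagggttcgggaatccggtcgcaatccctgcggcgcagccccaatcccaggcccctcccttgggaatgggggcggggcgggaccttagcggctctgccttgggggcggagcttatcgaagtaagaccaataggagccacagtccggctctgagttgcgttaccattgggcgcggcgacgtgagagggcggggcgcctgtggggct
Actg1: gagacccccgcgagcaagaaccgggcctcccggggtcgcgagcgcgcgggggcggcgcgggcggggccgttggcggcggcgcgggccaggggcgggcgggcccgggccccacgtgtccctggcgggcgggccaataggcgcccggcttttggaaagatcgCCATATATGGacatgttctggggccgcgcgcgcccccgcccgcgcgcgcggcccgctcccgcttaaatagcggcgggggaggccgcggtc
The box lay 250 to 241 bases before the start in Arpc4, 227 to 218 in Vcl and 90 to 81 in Actg1. Among the promoters of called genes at hand, 1 of 14 held it, and of those of tested genes not called, 2 of 28. The GC-box core GGGCGG was in 6 of the 14 (42.9%) and in 21 of the 28 (75.0%), beside 53.7% of 9534 promoters of tested genes. The ETS core CCGGAAGT was in 1 of the 14 and 3 of the 28, beside 5.22%. These matches describe letters in the window and are no evidence of binding.

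Of 4 genes that switch on branching, 2 were lower. Hcls1, a leukocyte cortactin relative that steadies Arp2/3 branches, stood at 9.31, 10.26 and 9.64 in Kit- and 7.17, 8.15 and 8.10 in Kit+. The groups were far apart, the differences were -2.14, -2.11 and -1.54, and the fall was 3.81-fold (log2 fold -1.93, SE 0.19, adjusted p = 0.000866 in limma, and 0.0468 without the block). Was, which encodes WASP, the activator of the Arp2/3 complex at the NK synapse, was at 10.29, 9.51 and 9.39 in Kit- and 8.28, 8.48 and 9.05 in Kit+. The groups did not overlap but came near each other in number 3, and the fall of 2.18-fold (SE 0.28, adjusted p = 0.0423 in limma) passed with 1 of the 3 numbers left out. Wipf1, which encodes the WASP partner WIP, had a log2 fold of 0.41 (interval -0.09 to 0.92), and Wasf2, of the WAVE complex, of -0.04 (interval -0.45 to 0.37).

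Rhoa and Rac2 were lower. Rhoa, which drives contraction, stood at 10.20, 10.97 and 10.98 in Kit- and 7.54, 9.26 and 8.86 in Kit+. It was far lower in each pair, a fall of 4.48-fold (log2 fold -2.16, SE 0.21, adjusted p = 0.000866 in limma, and 0.0717 without the block). Rac2, the Rac of blood cells, was tightly grouped in Kit- at 11.24, 11.23 and 11.06 and spread in Kit+ at 8.33, 10.04 and 10.32. Its fall was 3.05-fold (SE 0.35, adjusted p = 0.0262 in limma), with Kit+ 1 the lowest sample. Rac1 stood at 7.50 ± 0.32 and 7.30 ± 0.48 and Cdc42, which acts upstream of WASP, at 10.50 ± 0.47 and 9.99 ± 0.48 (SD, n = 3 each), with adjusted p = 0.747 in limma and 0.161. The exchange factor genes Vav1, Dock2 and Dock8 were not called. Vav1, which acts below activating NK receptors, stood at 10.07, 10.07 and 9.95 in Kit- and 10.59, 10.46 and 10.12 in Kit+, so that all Kit+ samples lay above all Kit- samples, with a log2 fold of 0.36 (interval -0.03 to 0.74, adjusted p = 0.27 in limma). Dock2, a Rac activator, stood at 9.92, 10.20 and 10.76 in Kit- and 11.03, 10.31 and 10.83 in Kit+ by its brightest probe, and the groups overlapped (adjusted p = 0.329 in limma). Another bright Dock2 probe had a log2 fold of -0.74 (adjusted p = 0.0836 in limma). Dock8, a Cdc42 activator, read 7.06, 6.22 and 6.13 in Kit- and 7.61, 5.98 and 6.22 in Kit+, and was above background on the number 1 arrays only. Arhgdib was high on Kit- 1 alone, at 10.42 against 7.00 to 8.02 on the other 5 arrays, and was not called (adjusted p = 0.265 in limma).

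**Figure D3:**
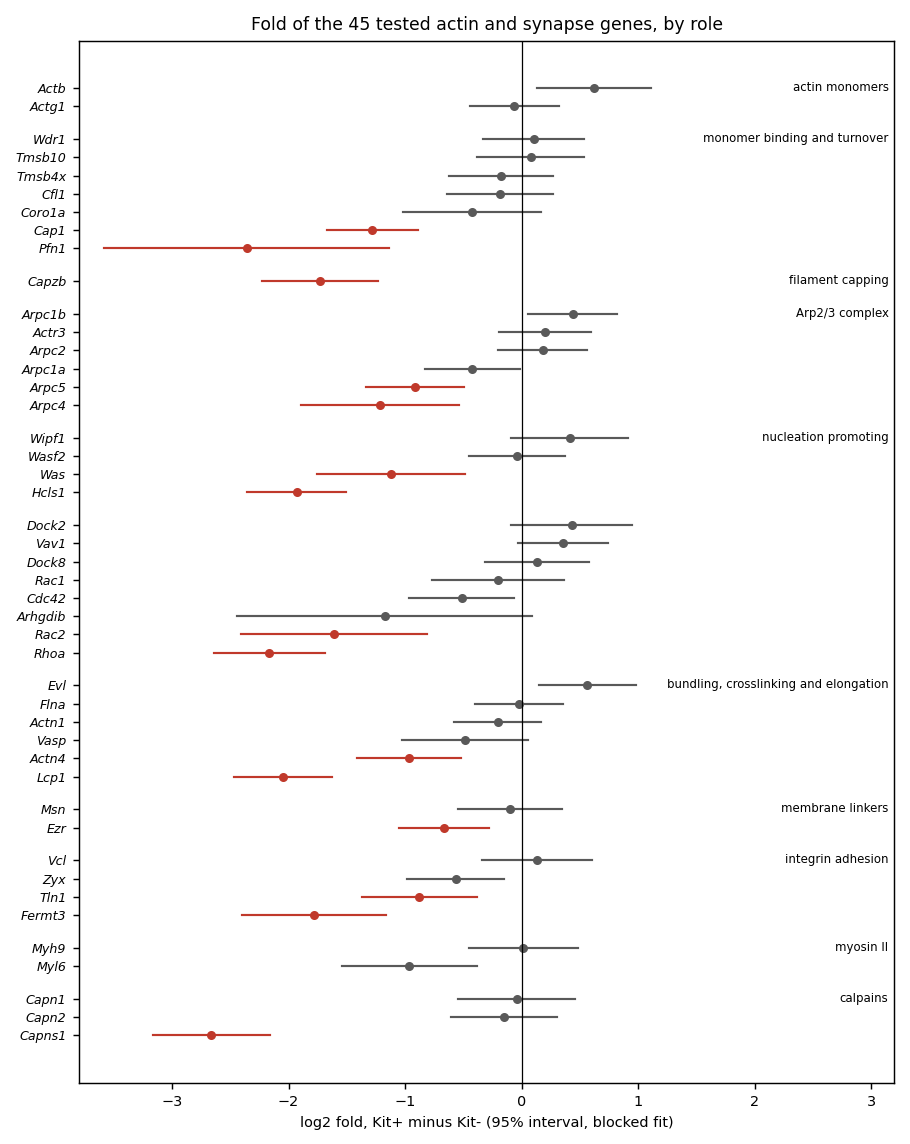
Log2 fold of Kit+ over Kit- (x axis) with its 95% interval from the paired limma fit, for the 45 tested genes grouped by role, most groups with their role at the right, and sorted within each. Red marks the 15 genes past the threshold. The largest fall is that of Capns1, and no gene higher in Kit+ passed.

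Bundling, crosslinking and elongation genes were divided. Lcp1, L-plastin, the actin bundler of leukocytes, stood at 8.56, 9.36 and 9.44 in Kit- and 6.69, 7.51 and 7.02 in Kit+. The groups lay more than 1 unit apart, and the fall of 4.14-fold (log2 fold -2.05, SE 0.19, adjusted p = 0.000683 in limma, and 0.0313 without the block) held with any number left out. Actn4, a crosslinking alpha-actinin, was at 9.28, 9.01 and 9.44 in Kit- and 7.96, 7.96 and 8.91 in Kit+, a fall of 1.96-fold (SE 0.20, adjusted p = 0.0196 in limma), and all 4 of its kept probes were below 0. Evl and Vasp, both of the Ena/VASP family that speeds filament growth, went different ways by their brightest probes without passing. Evl had a log2 fold of 0.56 (interval 0.15 to 0.98, adjusted p = 0.1 in limma), with wide gaps between numbers in both groups, and Vasp of -0.49 (interval -1.03 to 0.05). The probe of Flna, filamin A, was below background on all 6 arrays, and that of Actn1 was above it on 1.

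Of the linkers between filaments and membrane, Ezr, ezrin, stood at 10.50, 10.35 and 10.20 in Kit- and 9.66, 9.82 and 9.57 in Kit+. The samples of each group were close together and the fall was small, 1.59-fold (SE 0.17, adjusted p = 0.0453 in limma), and it passed with none of the 3 numbers left out. Its other kept probe, near background, had a log2 fold of 0.06, and with the mean of both the adjusted p was 0.291. Msn, moesin, the main such linker of lymphocytes, stood at 11.96 ± 0.42 and 11.86 ± 0.06 (SD, n = 3 each) by its brightest probe. A dimmer Msn probe read 7.92, 9.43 and 9.35 in Kit- and 6.56, 7.03 and 6.75 in Kit+, lower in all 3 pairs (adjusted p = 0.00324 in limma over all kept probes). It exceeded background on 1 Kit+ array, and with the others at their background level it was 4.27-fold lower.

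Genes that tie filaments to integrins gave 2 falls in 4. Fermt3, kindlin-3, which activates leukocyte integrins, stood at 8.98, 8.44 and 8.34 in Kit- and 6.43, 6.61 and 7.38 in Kit+. Among the Kit+ arrays 1 exceeded background, and with the other arrays at their background level it was 3.04-fold lower (log2 fold as measured -1.78, SE 0.27, adjusted p = 0.00623 in limma, and 0.0403 without the block). Tln1, talin, its partner on the integrin tail, was at 10.39, 9.52 and 9.36 in Kit- and 8.95, 8.72 and 8.97 in Kit+, a fall of 1.84-fold (SE 0.22, adjusted p = 0.0418 in limma) that passed with 1 of the 3 numbers left out. Zyx, zyxin, a focal adhesion protein, was lower in each pair with a log2 fold of -0.57 (interval -0.98 to -0.15, adjusted p = 0.0996 in limma). Vcl, vinculin, which reinforces the talin link, had a log2 fold of 0.13 (interval -0.34 to 0.60).

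Of the non-muscle myosin II genes, Myl6, an essential light chain, was even in Kit- at 12.35, 12.27 and 12.39 and lower in Kit+ at 10.58, 11.54 and 11.99. By this probe, its brightest, the log2 fold of -0.97 (SE 0.26) narrowly missed the threshold (adjusted p = 0.052 in limma). Another Myl6 probe, also above background on all 6 arrays, had a log2 fold of only -0.24 (adjusted p = 0.611 in limma over all kept probes). Myh9, the heavy chain, stood at 12.54 ± 0.49 and 12.55 ± 0.19 (SD, n = 3 each), with an interval of the log2 fold from -0.45 to 0.48.

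Capns1 had the largest fall of all 45 genes. It encodes the small regulatory subunit shared by calpain-1 and calpain-2, proteases that cut talin and other adhesion proteins. It stood at 9.45, 9.87 and 9.57 in Kit- and 6.17, 7.44 and 7.30 in Kit+. The groups were 2 units apart, and Kit+ 1 was not above background. The fall was 6.33-fold (log2 fold -2.66, SE 0.22, adjusted p = 0.000563 in limma, and 0.0183 without the block), or 5.70-fold with Kit+ 1 at its background level. The catalytic subunit genes were not called by their brightest probes. Capn1 stood at 7.40 ± 1.12 and 7.36 ± 0.63, and Capn2 at 10.14 ± 0.48 and 9.99 ± 0.28 (SD, n = 3 each). For Capn2, 2 dimmer probes were lower (adjusted p = 0.00102 and 0.000847 in limma over all kept probes). The first exceeded background on 1 Kit+ array and was 3.58-fold lower with the others at their background level, and the second exceeded it on none and was at least 3.08-fold lower.

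Probes of the same gene often disagreed, which bears on every gene above with more than 1. The 48 genes had 83 probes, of which 70 were kept. In a fit across all 22994 kept probes, chosen after the data were seen, 21 of the 70 were lower and none higher (limma, 4 higher at an unadjusted p under 0.05), where 3.58% of all kept probes were lower and 2.25% higher. These 21 probes belonged to 17 genes. Of the 15 genes called above, 11 passed in this fit by their brightest probe, and Pfn1, Arpc4, Was and Tln1 did not. The other 6 genes, Actb, Coro1a, Arpc1a, Vasp, Msn and Capn2, were lower by a dimmer probe only, which for Vasp exceeded background on no Kit+ array. For 6 genes 2 or more probes were above background on all 6 arrays. In 4 of the 6 (Actb, Arpc1b, Dock2 and Wdr1) those probes had opposite signs, beside 143 (37.6%) of 380 such genes on the array. The range of log2 folds between such probes was also wider, with a median of 0.95 over the 6 genes and 0.38 over the 380. Where on its transcript a probe lies was not given, so whether the probes read the same transcript forms was not tested. With the mean of all kept probes of a gene, 18 of 45 were lower and none higher, with a median log2 fold of -0.37 (limma, paired, 2 higher at an unadjusted p under 0.05).

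**Figure D4:**
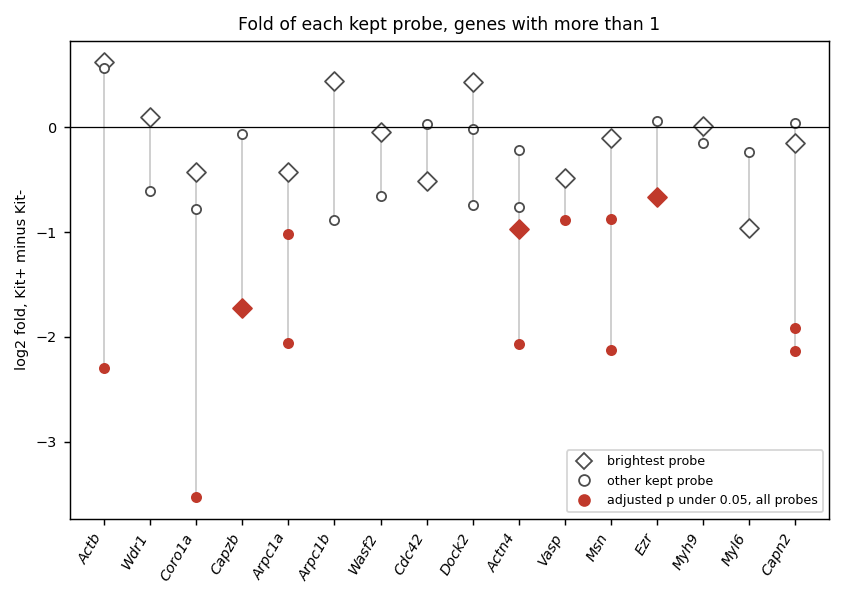
Log2 fold of Kit+ over Kit- (y axis) for every kept probe of the 16 genes with more than 1 kept probe. Diamonds are the brightest probe, circles the others, and red fill marks probes past the threshold in the fit across all kept probes. Folds are as measured, also where a probe was not above background in Kit+, and no probe above 0 is red.

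Other genes of the same processes, from lists made for this comparison, had lower counts, but these lists were also dimmer. Their median brightness was at percentile 62.1 for other actin regulators, 59.0 for other adhesion adaptors and myosins and 76.9 for microtubule genes. That of the 45 was at 89.2, and the lists were not matched for brightness. Among 54 tested other actin regulators 4 rose and 3 fell, with a median log2 fold of 0.05. The risers were Marcks (1.17), Marcksl1 (1.13), Enah (1.48), of the Ena/VASP family, and the moesin relative Rdx (0.80), and the fallers the cofilin kinase Limk1 (-0.88), the formin Diaph1 and Coro2a. Diaph1 and Coro2a exceeded background on no Kit+ array and were at least 1.77-fold and 1.54-fold lower. In Kit-, Marcks and Rdx exceeded background on 1 array and Marcksl1 and Enah on 2. Among 39 other adhesion adaptors and myosins 4 fell and none rose (limma, paired, with 4 higher at an unadjusted p under 0.05). They were Rassf5 (-0.99), which activates LFA-1, paxillin (Pxn, -0.85), Ilk and Capn10. Ilk and Capn10 exceeded background on no Kit+ array and were at least 1.74-fold and 1.41-fold lower. Of 44 tested microtubule genes 4 rose and 4 fell, with Tubb6 (1.62) the largest rise and the dynactin subunit Dctn3 (-1.95, above background on 1 Kit+ array) the largest fall. Values in brackets are log2 folds of genes past the threshold, and without the block Marcks, Diaph1, Tubb6 and Dctn3 passed. Whether the counts differ between these lists and the 45 genes was not tested.

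**Figure D5:**
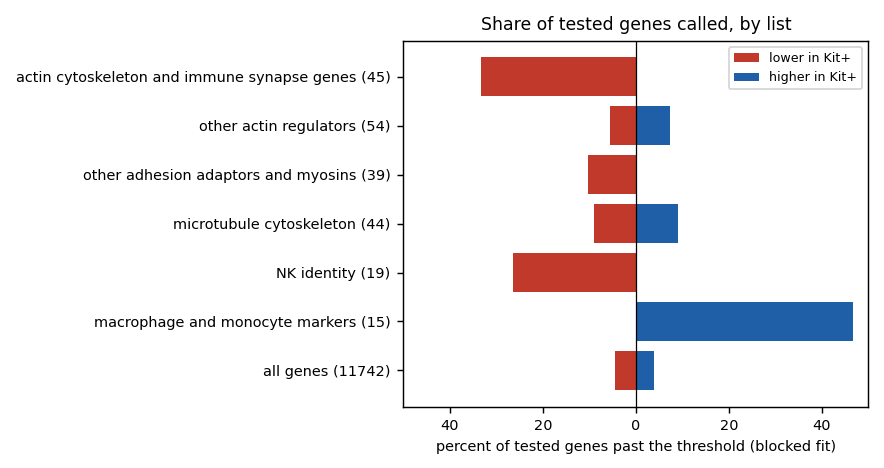
Percent of tested genes (x axis) lower in Kit+ (red, to the left) or higher (blue, to the right) in the paired limma fit, by list, with the number tested in brackets. The bar of the actin and synapse genes reaches 33.3% lower and 0% higher, beside 4.42% and 3.92% for all genes. The lists were not matched for brightness.

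Markers of other cells moved between the same groups. Of 15 tested macrophage and monocyte markers 7 rose and none fell (1 lower at an unadjusted p under 0.05, limma), among them Slc40a1, Mpeg1, Vcam1 and Axl. The summed linear intensity of the 15 was 1607 to 1672 in Kit- and 3771 to 4452 in Kit+, and Vsig4 was below background on all 6 arrays. Of 14 dendritic cell markers 5 rose and 1 fell, of 14 neutrophil markers 4 rose, and of 13 T cell markers 3 rose. The summed intensities were 5856 to 9301 and 6630 to 14693 for dendritic cells, 1280 to 1469 and 1696 to 3454 for neutrophils, and 3714 to 4379 and 4837 to 6481 for T cells, whose Cd4, Cd5 and Cd8a were below background on all 6. Each sum given here includes the background signal of every probe, so it is no measure of cell numbers. Of the 14 neutrophil markers, 0 were above background on all 6 arrays. None of 8 tested platelet markers passed (limma, paired, 1 lower at an unadjusted p under 0.05), with sums of 816 to 981 and 830 to 849. Of the 19 tested genes of NK identity, 5 were lower and 0 higher (2 higher at an unadjusted p under 0.05), among them Prf1, Klrc1, Eomes and Tbx21, and their sum was 90630 to 98834 in Kit- and 82556 to 95029 in Kit+. Ncr1 and Klrb1c, defining genes of NK cells, were above background on all 6 arrays. Klrb1c, which encodes NK1.1, was lower in each pair, with a log2 fold of -0.60 (interval -0.99 to -0.20, adjusted p = 0.0705 in limma). Of the 19 genes, 9 had a log2 fold above 0 and 10 below.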

How the data were processed

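RNA from 3 Kit- and 3 Kit+ samples was hybridised to Illumina bead arrays, 1 array a sample. The deposited files hold 1 intensity per probe and array for 45988 probes, exported with BeadStudio 3.1.1.0 per the submitters' processing notes. The deposited series value table equals a quantile normalization of those intensities to within a relative difference of 0.000223, and it has no detection p-values. In R 4.3.3 with limma 3.58.1, intensities were corrected by normexp (offset 50), quantile normalized and put on the log2 scale. Probes with a mean above the median probe were kept (22994). Each gene was read from its brightest probe. Symbols came from the platform annotation, updated through RefSeq (29399 of 29457 probes with 1 symbol), and 16520 probes had no symbol and 11 several.

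The main fit held group and sample number as a block. Deviations from the group means correlated at 0.641, 0.529 and 0.278 across genes for samples of the same number and at -0.576 to 0.0882 for the others. Within a group the deviations cancel, so positive values for same-numbered samples pull the others down, and part of this contrast is arithmetic. The design text says that sorts and comparisons were repeated 3 times. Precision is limited by the number of arrays, and an exact unpaired permutation test of 3 against 3 samples cannot go below a p of 0.1. A permutation test that keeps the 3 pairs has fewer arrangements, so its lowest possible p is higher still. All members could be named, with array values for each called member and for Actb, Actg1, Coro1a, Was, Dock2, Dock8 and Vav1, and up to 4 genes in each direction by p from every other list. The result of 1 list is not reported here. Further members given by array (Arpc2, Myl6, Arhgdib and a probe of Msn) were picked with their values in view. The members and all lists were chosen with earlier results of these data known. The fit was tested on simulated data, where it did not recover every planted change, so a gene that was not called may still differ.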

Additional observations from a re-analysis of the deposited data

How the results depend on the processing

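Without the replicate block, 62 genes were higher and 89 lower, and 4 of the actin and synapse genes were lower. With median centring the counts were 14, 9 and 0 (limma, with 16 of the 45 lower and 2 higher at an unadjusted p under 0.05), and with cyclic loess 94, 134 and 7. The median log2 fold of the 45 was -0.31 with median centring, -0.47 with cyclic loess, -0.36 with a normexp offset of 16, -0.46 over genes above background on at least 3 arrays and -0.37 with the mean of kept probes. With a pair or a sample left out, 0 to 687 genes were higher, 0 to 554 lower, 0 to 16 of the actin and synapse genes lower, and their median was -0.43 to -0.23. The counts of 0 came from the fits that left out 1 sample, which had no replicate block. Without Kit+ 3 no gene of the array passed (limma, 1302 at an unadjusted p under 0.05), and without Kit- 2, Kit- 3 or Kit+ 3 none of the 45 did (15 lower at an unadjusted p under 0.05 in each). With the number 2 samples left out of the paired fit 62 genes were higher and 98 lower, and 5 of the 45 were lower. Without number 1 the paired log2 fold was -0.96 for Rac2, -0.76 for Arpc4 and -0.68 for Was. With the deposited value table as the input, 11 of the 45 were lower, with array weights 12, with the offset of 16 13, with no filter on dim probes 15, with genes above background on at least 3 arrays 16, and by any kept probe, a setting chosen after seeing the data, 17. None of the 45 was higher in any of these settings. The cause of these changes was not tested. Genes near background, such as Tmsb4x and Flna, are limited by their signal.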
